A study of Mus musculus with 6 samples.

Results

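NF-kB target genes and feedback inhibitors were followed as a set of 10 genes in mouse liver: Il1b, Il1rn, Tnfaip3, Nfkbia, Nfkbiz, Bcl3, Socs3, Tnfaip2, Icam1 and Vcam1. They were taken by gene symbol through the RefSeq accession of each array probe, which gave 12 probes among 55681 probes and 10 genes among 37074 genes on the array. Tnfaip2 and Vcam1 had 2 probes each, and the other genes had 1. All 12 probes were well above background on all 6 arrays, so no member was lost to the filter on dim probes, and 22337 genes in all were tested.

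The arrays compared L1-Tg mice with WT littermates on a control-fat diet (CFD), to describe how their livers differed before any fat feeding. L1-Tg mice were hemizygous for a transgene of human NPC1L1, a cholesterol transporter, under the APOE promoter, which is active in hepatocytes (B6;D2-Tg(APOE-NPC1L1)20Lqyu/J). This line is 1 transgenic line, and it had been crossed back to C57BL/6J for at least 8 generations. All mice were males aged 6 to 12 weeks according to the methods, which give no age for the arrays alone. Each group had 3 arrays, and each array held liver RNA pooled from 2 or 3 mice. The spread within a group is therefore that between pools, not between single mice.

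NF-kB is a family of transcription factors that inhibitor proteins of the I-kappa-B type hold in the cytoplasm until signals from tumor necrosis factor, interleukin-1 or Toll-like receptors cause the inhibitor to be degraded. Among the genes then switched on are interleukin-1 and adhesion molecules, and also the inhibitors themselves, so that the pathway limits its own activity. In liver the pathway is known from Kupffer cells, the resident macrophages, from sinusoidal endothelial cells and from hepatocytes, which answer interleukin-6 and interleukin-1 with acute-phase proteins.

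RefSeq start-site windows of 300 bases, from 250 before to 50 after the start of transcription, were at hand for 8 of the 10 genes in the mouse build GRCm38.p6. Vcam1 and Nfkbiz had no window. The stretches below are shown because they hold the letters that NF-kB or STAT proteins are known to bind, which is the feature by which these genes are usually grouped. The kappa-B consensus searched has 10 bases, begins with GGG and ends with CC on one strand, with purines or pyrimidines at fixed places between, and both strands were searched. It was found in 4 of the 8 genes, against 9.55% of 27025 genes with such windows. Capitals mark the match, each sequence runs 5′ to 3′ on the strand of the gene, and all but that of Bcl3 end before the start of transcription.
Tnfaip3, chr10:19015411-19015550, minus strand: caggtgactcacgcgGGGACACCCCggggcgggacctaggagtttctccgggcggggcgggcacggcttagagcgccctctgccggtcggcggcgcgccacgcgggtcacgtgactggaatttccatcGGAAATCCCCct
Nfkbia, chr12:55492652-55492691, minus strand: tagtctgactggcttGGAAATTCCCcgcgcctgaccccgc
Tnfaip2, chr12:111442622-111442660, plus strand: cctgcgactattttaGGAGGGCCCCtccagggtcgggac
Bcl3, chr7:19822739-19822768, minus strand: ttcagtcggcggcagGGGAAGTCCCgctgc

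The motif TTCNNNGAA of STAT proteins, which reads the same on both strands and shares no position with the kappa-B matches, was found in Socs3 and Icam1, 2 of the 8 genes, against 9.55% of genes with windows. Socs3 is a known target of STAT3. A match describes the letters in the window and does not show that a protein bound there.
Socs3, chr11:117969497-117969535, minus strand: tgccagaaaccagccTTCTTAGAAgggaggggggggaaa
Icam1, chr9:21015883-21015921, plus strand: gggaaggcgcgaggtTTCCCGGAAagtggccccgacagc

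The 6 arrays shared 1 slide. Row 1 held WT and row 2 held L1-Tg, so position on the slide and genotype cannot be told apart. The 75th percentile of the signal was between 297 and 378, between 53.1% and 59.2% of spots were well above background, and no spot was saturated. The mouse Npc1l1 probe gave a processed signal between 15.7 and 30.3 and was well above background on 3 of 6 arrays, and it does not read the human transgene, so the labels were not checked by it. The pool L1-Tg 2 stood apart. Its summed level of the 7 pancreas markers was 94.6 times the 75th percentile, against 10.04 to 11.6 on the other 5 arrays, and its summed level of erythroid markers was 321, against 149 to 175. For the 10 genes and the medians of the pathway lists, values that moved by over 1.5 times without this pool are also given without it. Single genes of the pathway lists and the marker values are not given without it. Hepatocyte markers were well above background on all arrays in all 10 genes of that list, with a summed level of 5181 to 6160 in L1-Tg and 5638 to 6273 in WT.

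None of the 10 genes passed the adjusted threshold between L1-Tg and WT livers. The smallest adjusted p was 0.559 in limma, for Bcl3, and 29 genes or 0.13% of all genes tested passed. The group mean was higher in L1-Tg for 7 of 10 genes and lower for 3, against 43.1% of all genes tested with a higher mean. The median log2 difference (L1-Tg minus WT) over the 10 genes was 0.18, and over all genes tested it was -0.03. Without L1-Tg 1 the median over the 10 genes was -0.0098. An unadjusted p under 0.05 was reached by 1 of 10 genes, Bcl3, against 8.86% of all genes tested. The L1-Tg and WT pools did not overlap for 1 of 10 genes, again Bcl3, against 15.9%. The difference index of the methods, the difference of the means divided by the sum of the SDs on linear signals, had a modulus above 0.7 for 2 of 10 genes, Bcl3 and Tnfaip2, against 26.3% of the genes above background on all arrays. For the adjusted p, the unadjusted p, the overlap and the index alike, the share of the 10 genes was close to or below the share of all genes.

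**Figure D1:**
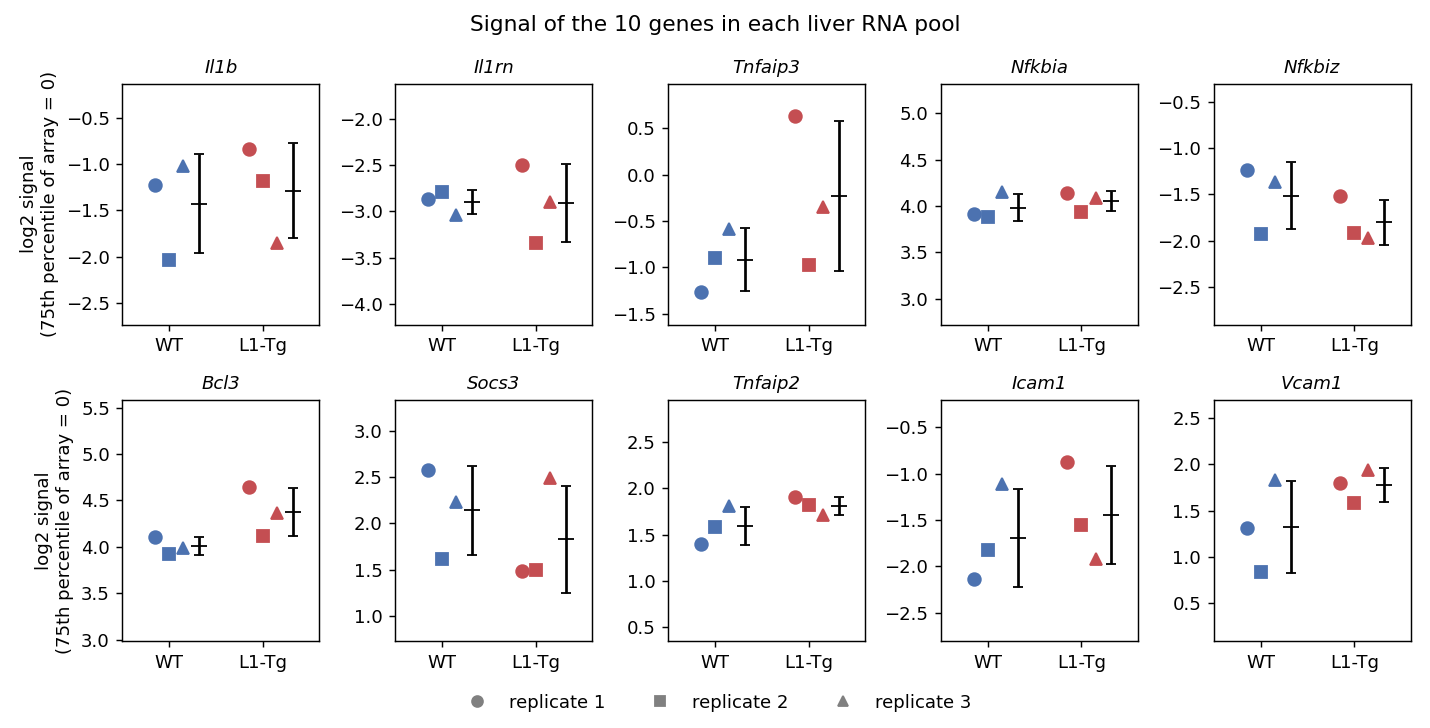
Signal of each of the 10 genes on each array, as log2 of the processed signal minus the array's 75th percentile, with WT in blue and L1-Tg in red and the replicate number given by the marker shape. The bar beside each group is the mean ± SD of 3 pools, and each panel spans the same number of log2 units. Of the 10 panels, that of Bcl3 has all L1-Tg points above all WT points.

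Interleukin-1 beta, the inflammatory cytokine that macrophages release, and its natural antagonist showed no difference that could be detected within their spread between pools. Values here and below are log2 signals relative to the 75th percentile of the array. Il1b, the ligand, was at -0.83, -1.18 and -1.85 in the L1-Tg pools 1, 2 and 3 and at -1.22, -2.03 and -1.02 in the WT pools 1, 2 and 3. The highest pool was L1-Tg 1 and the lowest WT 2, and the groups overlapped. The log2 difference was 0.14 with an SE of 0.35 (95% interval -0.70 to 0.98, adjusted p = 0.906, limma). It turned to -0.087 without L1-Tg 1 and to -0.16 without WT 2, and it was 0.085 without L1-Tg 2 and 0.42 without L1-Tg 3.

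Il1rn, which encodes the receptor antagonist that blocks interleukin-1, was at -2.50, -3.34 and -2.90 in L1-Tg and at -2.87, -2.79 and -3.04 in WT. The L1-Tg pools held both the highest and the lowest value, with the WT pools between them. The log2 difference was -0.02 with an SE of 0.22 (95% interval -0.54 to 0.51, adjusted p = 0.988, limma). Its sign was not settled: the index on linear signals was 0.04, quantile normalization gave a log2 difference of 0.084, and the value without L1-Tg 2 was 0.20.

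The Il1b probe is printed 10 times on the array, so its reading error could be set beside the difference between pools. Within an array the 10 spots had an SD between 0.090 and 0.135 on the log2 scale, with a pooled value of 0.113. Between pools of the same group the SD was 0.525. The 10 spots of L1-Tg 3 lay between processed signals of 85.3 and 106, those of L1-Tg 1 between 188 and 233, and those of WT 2 between 67.2 and 96.3. The SD between spots holds the error of reading 1 array and leaves out labeling, hybridization and the mice. Over 399 probes printed 10 times, the median SD between spots was 0.079 for probes above background.

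**Figure D2:**
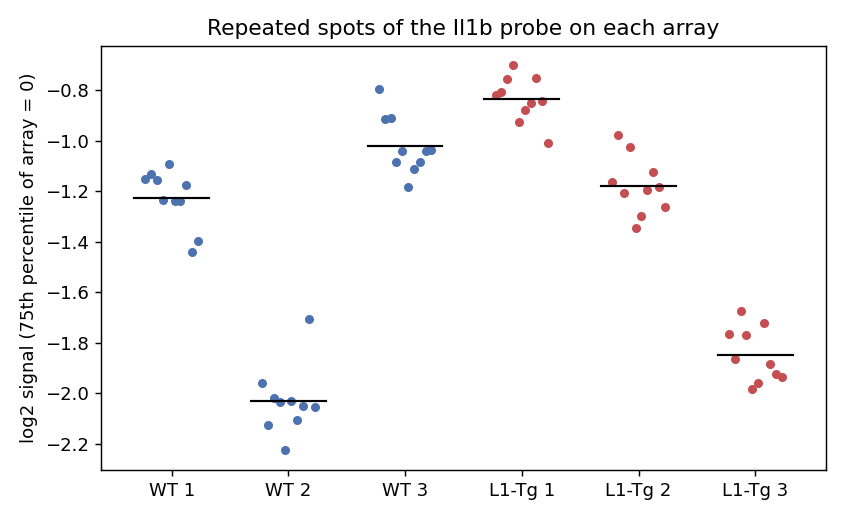
The 10 repeated spots of the Il1b probe on each array, as log2 signal minus the array's 75th percentile; each point is a spot and the line is the mean. The spots of L1-Tg 1 and L1-Tg 3 do not overlap, nor do those of WT 2 and WT 3, while the ranges of the array means overlap between the groups.

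Of the feedback inhibitors of NF-kB itself, Tnfaip3, Nfkbia and Bcl3 had a higher mean in L1-Tg and Nfkbiz a lower one, and none passed the adjusted threshold. Tnfaip3 encodes A20, a ubiquitin-editing enzyme that shuts off signaling from the tumor necrosis factor and Toll-like receptors. It was at 0.63, -0.97 and -0.35 in L1-Tg and at -1.27, -0.90 and -0.59 in WT. L1-Tg 1 and L1-Tg 3 were the highest pools, but L1-Tg 2 lay below 2 of the 3 WT pools, so the groups overlapped. The log2 difference of 0.68 was larger than that of any other gene of the set, with an SE of 0.41 (95% interval -0.30 to 1.67, adjusted p = 0.637, limma). It rested on single pools: it was 0.25 without L1-Tg 1 and 1.05 without L1-Tg 2, the pool with pancreas and erythroid markers, and neither value passed the adjusted threshold (adjusted p of 0.822 and 0.585, limma).

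Nfkbia, the inhibitor I-kappa-B alpha that holds NF-kB in the cytoplasm and is itself an early target, was at 4.14, 3.94 and 4.09 in L1-Tg and at 3.91, 3.89 and 4.16 in WT. The highest pool was WT 3 and the lowest pools were WT 1 and WT 2. The SD was 0.11 in L1-Tg and 0.15 in WT (n = 3 each), and pooled over both groups it was 0.129, the smallest of the 10 genes. L1-Tg and WT differed by 0.07 on the log2 scale with an SE of 0.12, and the 95% interval of -0.21 to 0.35 was the narrowest of the 10 genes (adjusted p = 0.848, limma). As a fold change the interval ran from 0.866 to 1.27. With 1 pool left out the log2 difference ran from 0.022 without WT 2 to 0.16 without WT 3, and it was 0.13 without L1-Tg 2, 0.028 without L1-Tg 1 and 0.034 without WT 1.

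Nfkbiz encodes I-kappa-B zeta, a nuclear member of the inhibitor family that is needed for a part of the secondary target genes. It was at -1.52, -1.91 and -1.97 in L1-Tg and at -1.24, -1.93 and -1.37 in WT. WT 1 and WT 3 were the highest pools, while WT 2 lay among the L1-Tg pools. This is a log2 difference of -0.29 with an SE of 0.22 (95% interval -0.81 to 0.23, adjusted p = 0.678, limma). It was -0.15 without WT 1 and -0.50 without WT 2, where the groups did not overlap and the adjusted p was 0.565 in limma.

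Bcl3, an atypical I-kappa-B protein that binds p50 and p52 in the nucleus, was the 1 gene of the set whose groups did not overlap. Its processed signals were 9424, 5147 and 6942 in the L1-Tg pools 1, 2 and 3 and 5458, 4766 and 5382 in the WT pools. On the log2 scale relative to the 75th percentile these were 4.64, 4.12 and 4.37 in L1-Tg and 4.11, 3.92 and 3.99 in WT. The lowest L1-Tg pool, L1-Tg 2, and the highest WT pool, WT 1, were at 4.116 and 4.111 and thus nearly equal. The group means were 4.37 ± 0.26 and 4.01 ± 0.10 (SD, n = 3 each), a fold of 1.29 with a 95% interval of 1.00 to 1.66. The log2 difference was 0.37 with an SE of 0.15 and an unadjusted p of 0.0481 in limma, and the adjusted p was 0.559. In the order of unadjusted p Bcl3 was gene 1919 of 22337. Without scaling of the arrays its groups overlapped, and without L1-Tg 1 the log2 difference was 0.23.

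Socs3, which encodes an inhibitor of JAK kinases that limits interleukin-6 signaling through STAT3, was at 1.487, 1.502 and 2.491 in L1-Tg and at 2.57, 1.62 and 2.23 in WT. L1-Tg 1 and L1-Tg 2 were the lowest pools, and L1-Tg 3 lay above 2 of the 3 WT pools. On average L1-Tg was lower, with a log2 difference of -0.31 and an SE of 0.35 (95% interval -1.17 to 0.54, adjusted p = 0.777, limma). Single pools moved this value: it was -0.14 without L1-Tg 1, -0.15 without L1-Tg 2, -0.65 without L1-Tg 3, -0.100 without WT 1 and -0.58 without WT 2. Socs3 was lowest in L1-Tg 1, the pool in which 6 of the 10 genes had their highest value.

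The effector genes had higher means in L1-Tg and overlapping groups. Tnfaip2, a tumor necrosis factor-induced gene linked to membrane nanotubes, was at 1.91, 1.82 and 1.71 in L1-Tg and at 1.40, 1.58 and 1.81 in WT. All 3 L1-Tg pools lay above the WT mean, with WT 3 among them. The log2 difference was 0.22 with an SE of 0.13 (95% interval -0.10 to 0.53, adjusted p = 0.640, limma). The index was 0.703, just past the threshold, and it fell below the threshold under quantile normalization, without scaling, in the deposited matrix, and without L1-Tg 1, L1-Tg 2, WT 1 or WT 2. The log2 difference was 0.12 without WT 1. On the other Tnfaip2 probe, which has the lower mean of the pair, the pools were at 1.05, 1.03 and 0.95 in L1-Tg and at 0.53, 0.66 and 0.93 in WT, so that the groups did not overlap. There the log2 difference was 0.30, with an unadjusted p of 0.0514 and an adjusted p of 0.569 in limma over all probes.

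Vcam1, the endothelial adhesion molecule that binds the integrin VLA-4 of monocytes and lymphocytes and is also made by Kupffer cells, was at 1.80, 1.58 and 1.94 in L1-Tg and at 1.31, 0.84 and 1.83 in WT. WT 3 lay among the L1-Tg pools, and WT 1 and WT 2 lay below them. The log2 difference was 0.45 with an SE of 0.25 (95% interval -0.17 to 1.06, adjusted p = 0.627, limma). It was 0.70 without WT 3, with an adjusted p of 0.280 in limma, and 0.20 without WT 2. The other Vcam1 probe had the same order of groups with a smaller log2 difference, 0.24 with an SE of 0.21.

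Icam1, which binds the leukocyte integrins LFA-1 and Mac-1, was at -0.88, -1.56 and -1.92 in L1-Tg and at -2.14, -1.82 and -1.11 in WT. The pools of the groups alternated in order. Their means differed by 0.24 on the log2 scale, with an SE of 0.35 (95% interval -0.61 to 1.09, adjusted p = 0.832, limma), and it was -0.047 without L1-Tg 1, 0.016 without WT 1, 0.47 without L1-Tg 3 and 0.53 without WT 3.

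**Figure D3:**
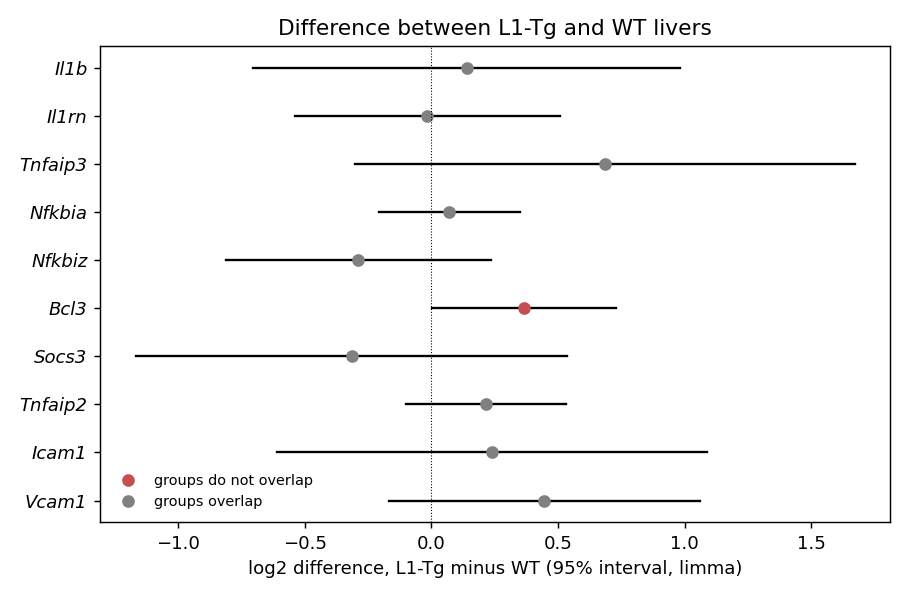
Log2 difference (L1-Tg minus WT) of each gene as a point, with its 95% interval from limma as a line. The interval of Bcl3, drawn in red because its groups do not overlap, begins just above 0, and the intervals of the other 9 genes hold 0.

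The set held genes with a wide spread between pools of the same group. The pooled SD within groups was 0.619 for Tnfaip3, 0.531 for Socs3, 0.528 for Icam1 and 0.525 for Il1b, against a median of 0.168 over all genes tested. Between 93.4% and 95.6% of all genes had a smaller SD than these 4 genes. For Vcam1 the share with a smaller SD was 85.2%, and for Il1rn and Nfkbiz alike it was 79.1%. Bcl3, Tnfaip2 and Nfkbia were nearer to other genes, at 58.9%, 47.4% and 34.0%. The 4 genes with the widest spread are thus those for which 3 pools a group gave the widest intervals.

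Several of the genes had their highest or lowest values on the same arrays. L1-Tg 1 held the highest value of 6 genes, namely Il1b, Il1rn, Tnfaip3, Bcl3, Tnfaip2 and Icam1, and lay above the mean of all arrays for 9 of 10. WT 2 held the lowest value of 4 genes and lay below that mean for 9. The median deviation of the 10 genes from their means over all arrays was 0.33 in L1-Tg 1, -0.08 in L1-Tg 2 and 0.04 in L1-Tg 3. In the WT pools 1, 2 and 3 it was -0.09, -0.27 and 0.19. WT 3 was thus above L1-Tg 2 and L1-Tg 3, and the order of the arrays did not follow the genotype.

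Kupffer cell markers were also high in L1-Tg 1 and WT 3. The Kupffer cell markers had a higher mean in L1-Tg in 9 of 9 genes tested, none passed the adjusted threshold, and the groups overlapped in all 9. Their summed level, in multiples of the 75th percentile, was 162 to 190 in L1-Tg and 102 to 188 in WT, and no marker of the list was at background, Clec4f, Timd4 and Adgre1 included. Their median deviation was 0.30, 0.09 and 0.19 in the L1-Tg pools and -0.64, -0.34 and 0.29 in the WT pools. WT 3 was the highest WT pool for these markers and for Il1b, Tnfaip3, Nfkbia, Tnfaip2, Icam1 and Vcam1. It was not the highest WT pool for Il1rn, Nfkbiz, Bcl3 and Socs3. Endothelial markers were higher in 7 of 10 genes, with sums of 111 to 113 in L1-Tg and 105 to 115 in WT. Neutrophil and monocyte markers were higher in 5 of 7 genes tested, and Cxcr2 was at background on all arrays. Their summed level was 178 to 197 in L1-Tg and 210 to 259 in WT. The 2 lower genes, Csf3r and Elane, had the highest signals of the list and made up most of this sum. Csf3r was at 7.36 in L1-Tg and 7.61 in WT, and Elane at 4.10 and 4.81. Lymphocyte markers were higher in 6 of 10 genes, with a median log2 difference of 0.37. Their summed level was 90.5 to 107 in L1-Tg and 101 to 238 in WT. Cd4, the gene with the highest signal of that list, made up most of this sum and was lower in L1-Tg, at 6.41 against 7.12 in WT. Stellate cell markers were higher in 3 of 8 genes and summed to 49.7 to 66.7 in L1-Tg and 52.8 to 67.2 in WT. Hepatocyte markers were higher in 2 of 10 genes and lower in 8, and none passed the adjusted threshold. Their median log2 difference was -0.12. The part of these cell types in the values of the 10 genes was not tested. In bulk liver RNA, a change in the number of cells of a type and a change in RNA per cell cannot be told apart.

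**Figure D4:**
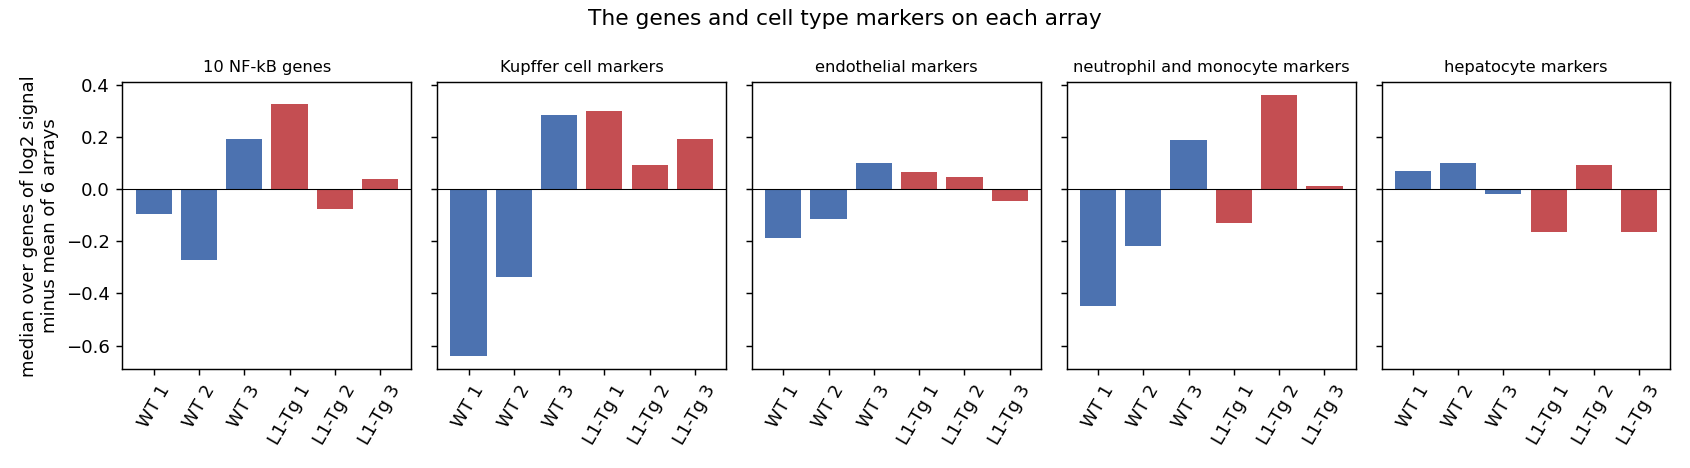
Median deviation from the mean of the 6 arrays, in log2 units, over the 10 genes and over 4 lists of cell type markers, with a bar for each array (WT blue, L1-Tg red). For the 10 genes, L1-Tg 1 and WT 3 are the highest bars and WT 2 the lowest; for the Kupffer cell markers WT 1 and WT 2 are low and the other 4 arrays lie above 0.

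Around the set, the genes of the NF-kB signaling pathway, its inhibitors included, were mostly higher by a small amount, and none passed the adjusted threshold. Of 39 tested genes of the core pathway, 32 had a higher mean in L1-Tg and 7 a lower one, with a median log2 difference of 0.12. At an unadjusted p under 0.05 in limma, 6 were higher and 2 lower, against 8.86% of all genes tested. The groups did not overlap for 15 genes of the list, 11 higher and 4 lower, against 15.9% of all genes tested. The smallest p belonged to Traf3, an adaptor that restrains the noncanonical pathway, at 1.94 ± 0.17 in L1-Tg and 1.37 ± 0.061 in WT (SD, n = 3 each, adjusted p = 0.300, limma). Next was Irak4, the kinase at the interleukin-1 and Toll-like receptors, at -2.03 ± 0.14 and -2.54 ± 0.028 (SD, n = 3 each, adjusted p = 0.308, limma). Rel was at background on all arrays. Under scaling to the array median the median of this list was 0.23, where that of all genes moved from -0.031 to 0.077.

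Among other target genes of NF-kB, 27 of 37 were tested, 17 with a higher and 10 with a lower mean in L1-Tg, and none passed the adjusted threshold. The median log2 difference was 0.11. An unadjusted p under 0.05 in limma was reached by 4 higher genes and 1 lower gene, against 8.86% of all genes tested. The groups did not overlap for 7 higher genes and 0 lower genes, against 15.9% of all genes tested. The median log2 difference of the list was 0.23 without L1-Tg 2. Lcn2, which encodes the iron-siderophore binding protein lipocalin-2, was at 3.45 ± 0.29 in L1-Tg and 1.66 ± 0.63 in WT, a log2 difference of 1.79 (SD, n = 3 each, adjusted p = 0.263, limma). Cd83, a marker of activated antigen-presenting cells, differed by 0.80 (adjusted p = 0.479, limma). The groups did not overlap for either gene. Several classical targets could not be compared: Cxcl2, Ccl20, Ptgs2, Sele, Csf2, Mmp9, Plau and Lta were at background on all arrays, and Tnf and Il6 were above it on 2 arrays and 1 array.

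The interleukin-1 system beyond the ligand and the antagonist had 17 of 18 genes on the array and 13 tested, 11 with a higher and 2 with a lower mean, and a median log2 difference of 0.20. None passed the adjusted threshold. At an unadjusted p under 0.05 in limma, 2 were higher and 0 lower, against 8.86% of all genes tested. The 2 higher genes were the inflammasome genes Nlrp3, the sensor, with a log2 difference of 0.31 (adjusted p = 0.536, limma), and Casp1, the protease that matures interleukin-1 beta, with 0.52 (adjusted p = 0.546, limma). The receptors Il1r2, Il1rl1, Il1rl2 and Il18r1 were at background on all arrays.

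Genes of the SOCS family and the interleukin-6 and STAT3 response, the setting of Socs3, were spread around 0. Of 33 genes tested, 15 had a higher and 18 a lower mean in L1-Tg, with a median log2 difference of -0.03, the same as over all genes, and none passed the adjusted threshold. The median was -0.060 without L1-Tg 2. After Lcn2, which is also on this list, the smallest p was that of Il6ra, the interleukin-6 receptor, with a log2 difference of -0.35 (adjusted p = 0.499, limma), and its groups did not overlap. At an unadjusted p under 0.05 in limma, 2 genes of the list were higher and 2 lower, against 8.86% of all genes tested.

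The partners of Icam1 and Vcam1 on leukocytes and endothelium had overlapping groups in all of the 14 genes tested, out of 15 on the list, and none passed the adjusted threshold. Of these, 10 had a higher and 4 a lower mean in L1-Tg, with a median log2 difference of 0.10. At an unadjusted p under 0.05 in limma, 1 was higher and 0 lower, against 8.86% of all genes tested. Itgb2, the beta chain that LFA-1 and Mac-1 share, differed by 0.38 (adjusted p = 0.560, limma). The other beta chains of the list, Itgb1 and Itgb7, were also higher, by 0.16 and 0.40. The alpha chains Itgal, Itgam and Itga4 of LFA-1, Mac-1 and VLA-4 were lower, with log2 differences of -0.63, -0.26 and -0.19. Sele was at background on all arrays.

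**Figure D5:**
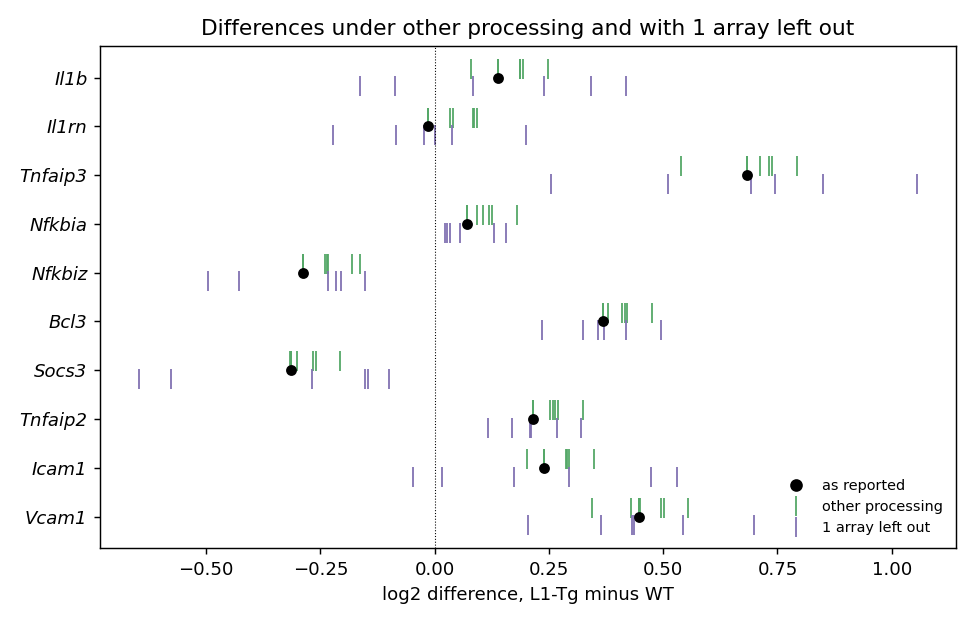
Log2 difference (L1-Tg minus WT) of each gene as reported (black), under other processing (green) and with 1 array left out (purple). Tnfaip3, Nfkbia, Bcl3, Tnfaip2 and Vcam1 stay above 0 and Nfkbiz and Socs3 below 0 in all settings drawn, while Il1b, Il1rn and Icam1 cross 0.

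How far the values rested on single pools differed between the genes. WT 3 had the highest median deviation of the 10 genes among the WT pools, 0.19. Without it 4 of 10 genes had groups that did not overlap, Tnfaip2, Nfkbia, Vcam1 and Bcl3. In that comparison of 3 pools with 2, 31.9% of all genes tested did not overlap. The index passed 0.7 for 5 genes, those 4 and Tnfaip3, against 38.6% of all genes tested. None of the 10 genes passed the adjusted threshold without WT 3, or without any other single pool. Without L1-Tg 2, the pool with the pancreas and erythroid markers, the groups did not overlap for Tnfaip3 and Bcl3, against 27.3% of all genes tested. These 2 genes had an unadjusted p under 0.05 in limma. The share of all genes at that p was not computed without this pool, so the count cannot be set against it. With 1 pool left out in turn, the log2 difference of Bcl3 ran from 0.23 to 0.50.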

How the data were processed

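Liver RNA was hybridized in 1 color (Cy3) to mouse SurePrint G3 arrays. Agilent Feature Extraction 10.10.1.1 was used by the authors on the scans. The processed signals they deposited are linear intensities, background-subtracted and detrended within the array, without scaling between arrays. The deposited matrix equals these signals times 1 factor per array, whose basis is not given in the sources used here.

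Control spots were left out, non-uniform spots were treated as missing and repeated spots were averaged. Log2 signals were centered on the 75th percentile of their array. A gene was read from its probe with the highest mean, and it was tested where every array of either group was well above background. Tests used lmFit and eBayes of limma 3.58.1 (R 4.3.3) and were two-sided, with a Benjamini-Hochberg threshold of 0.05 over the 22337 genes. The difference index and its threshold of 0.7 follow the methods. A symbol was found for 27235 of the 28685 probes named by a RefSeq accession. The array design was annotated on mm9, and the promoter sequences are those of RefSeq in GRCm38.p6. Samples were grouped by genotype from their labels. The 10 genes, the 5 pathway lists and the marker lists were chosen with earlier results of these data known. Of each pathway list the 2 genes with the smallest p are named, and of marker lists the genes at background. Clec4f, Timd4, Adgre1, Csf3r, Elane, Cd4, the integrin chains other than Itgb2 and the genes named at background in the pathway lists were added as description. Some genes that this rule names are not reported here. The number of arrays limits the precision. The alternatives were other scalings (quantile, array median, none), a normexp background correction (offset 50), the deposited matrix, other filters and probe rules, a replicate block, a test per gene that shares no spread between genes, and each array left out.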

Additional observations from a re-analysis of the deposited data

How the results depend on the processing

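None of the 10 genes passed the adjusted threshold under any of the 16 alternatives, and Tnfaip3, Tnfaip2, Nfkbia, Vcam1 and Bcl3 (higher) and Nfkbiz and Socs3 (lower) kept their direction in all of them. At an unadjusted p under 0.05, 0 to 2 of the 10 passed across these alternatives. The share of all genes at that p was not computed for any alternative, the replicate block included, so these counts have nothing beside them. Il1rn, at -0.02, turned to 0.084 under quantile normalization, 0.094 under the array median, 0.040 without scaling, 0.085 under normexp and 0.033 in the deposited matrix, and ran from -0.22 to 0.20 with 1 array left out. With 1 array left out Il1b ran from -0.16 to 0.42 and Icam1 from -0.047 to 0.53. The count past the difference index (2) was 1 under quantile normalization, without scaling and in the deposited matrix, 3 under the array median, and 1 to 5 with 1 array left out; the share of all genes tested was 26.1%, 17.1%, 25.3%, 24.4% and 28.3% to 38.6% in these settings. The count of genes whose groups do not overlap (1) was 2 under the array median, 0 without scaling and 1 to 4 with 1 array left out, where the share of all genes tested was 13.8%, 8.32% and 21.3% to 31.9%. The median of the core pathway list (0.12) was 0.23 under the array median, 0.18 without scaling and 0.17 in the deposited matrix. That of the interleukin-1 system (0.20) was 0.31 under the array median and 0.083 under normexp. That of the SOCS and STAT3 list (-0.03) was 0.080 under the array median and ran from -0.079 to 0.090 with 1 array left out, where that of other target genes ran from 0.089 to 0.25; the latter was 0.029 without a filter, 0.052 under normexp and 0.063 with the filter on all 6 arrays. The cause of these shifts was not tested, other than that the array median moves all genes together. Over all genes, 29 passed the adjusted threshold, 10 without a filter, 0 in a test per gene that shares no spread between genes, and 15 to 36 with 1 array left out. The replicate numbers did not pair the pools (correlations of -0.16, 0.11 and 0.02 between same-numbered pools), and a replicate block gave 11 genes and 0 of the 10, with Vcam1 and Bcl3 at an unadjusted p under 0.05 in limma. All 10 genes were well above background on all arrays, but Il1rn had processed signals of 29.3 to 66.8, and under normexp its SE was 0.095 in place of 0.22.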
